A study of Caenorhabditis elegans with 4 samples.

Results

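The clec genes of Caenorhabditis elegans encode proteins with a C-type lectin-like domain. Members were all features of the count tables whose symbol is clec- followed by digits alone, which gave 264 of 46926 features. In the WBcel235 annotation 239 of them were protein coding and 25 were pseudogenes. Chromosome V carried 96, IV 58, II 51, I 38, III 18 and X 3.

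C-type lectin-like domains bind carbohydrates or proteins, and in nematodes most of these proteins carry a signal peptide and are secreted. Several intestinal clec genes are used as reporters of the response to pathogenic bacteria, downstream of the MAP kinase PMK-1 and other regulators. Other members act elsewhere, such as CLEC-87 and CLEC-88, which are core proteins that carry chondroitin chains in the germline and the early embryo.

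Nuclei came from whole day-1 adults, with 1 library for each of 4 groups, each from a pool of worms. Wild-type N2 worms (ctrl) and the CRISPR knockouts of ent-1 (ent-1KO) and ent-2 (ent-2KO), genes for equilibrative nucleoside transporters, ate HT115 bacteria with the empty L4440 vector. The ent-1KO;ent-2KD worms were the ent-1KO strain on HT115 bacteria that make ent-2 double-stranded RNA, which is not limited to a tissue. Nuclei were sorted on Hoechst signal and size with the polyploid intestinal nuclei included, and 3′ transcript ends were counted as unique molecular identifiers (UMIs, 1 per captured molecule). The study asked how the transporters of soma and germline affect reproduction, and the comparisons here ask where each clec gene was counted and in which libraries its level differed. Values of the 4 libraries are given in the order ctrl, ent-1KO, ent-2KO and ent-1KO;ent-2KD.

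After removal of doublets 10577, 13151, 11190 and 11744 nuclei were kept, with medians of 1399, 1748, 1684 and 1830 UMIs. The targeted gene ent-1 stood at 140, 16.8, 142 and 14.6 UMIs per 1000000 UMIs (CPM), and ent-2 at 26.4, 24.5, 9.52 and 16.8 CPM. Between 43 and 61 barcodes were shared by any pair of libraries, at most 0.465% of a library. The ent-1KO;ent-2KD library stood apart in its make-up, with 25.9% germline-like nuclei against 54.7% to 57.6% in the others and 7 embryo-like nuclei against 784 to 954. These shares rest on the integration of the libraries before clustering. Without it germline-like nuclei were 3.50% of ent-1KO;ent-2KD, 411 nuclei, against 43.2% to 57.9% of the others, and ribosomal-rich nuclei 35.6% of it in place of 15.2%. Fewer nuclei of a type and less RNA per nucleus cannot be told apart in sums over a whole library. With 1 library per group no difference has a replicate check, no test was run, and the 95% intervals in parentheses cover counting error only.

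The clec genes together took 2728 CPM (2704 to 2751), 3514 CPM (3492 to 3535), 3120 CPM (3097 to 3143) and 2937 CPM (2917 to 2958) of the UMIs. The sum was highest in ent-1KO and lowest in ctrl, and none of these intervals overlapped. A single member, clec-87, made up 47.2%, 50.2%, 56.6% and 18.4% of it. Without clec-87 the rest summed to 1441, 1751, 1354 and 2488 CPM, so that ent-1KO;ent-2KD then stood highest, outside the intervals of the other libraries. At least 1 UMI was seen for 195, 203, 204 and 213 members, and for 161 members in all 4 libraries. Over the libraries together 21 members had no UMI, 80 had 1 to 9, 62 had 10 to 49 and 101, 4 of them pseudogenes, had 50 or more. The 10 most abundant members held 84.5%, 87.1%, 87.05% and 72.97% of all clec UMIs.

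**Figure D1:**
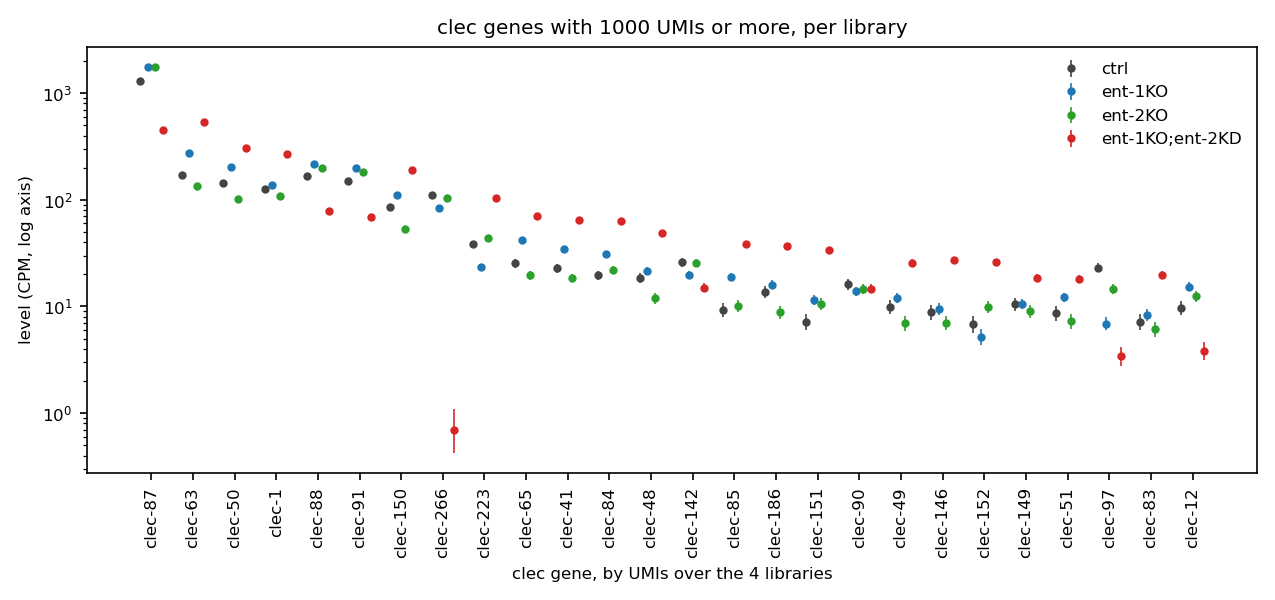
Level in each library, in CPM on a log axis, of the 26 clec genes with 1000 UMIs or more over the 4 libraries, ordered by their UMIs. Points are libraries and bars are exact Poisson 95% intervals for counting error. The germline genes clec-87, clec-88 and clec-91 and the embryonic clec-266 were lowest in ent-1KO;ent-2KD, where clec-63, clec-50 and clec-150 were highest.

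To place the members, nuclei were clustered without any clec gene among the variable genes and clusters were named by markers of known cell types, so that a member's level did not make its class. Clusters with a high share of ribosomal protein UMIs were kept apart as ribosomal-rich. The main one, cluster 2 with 5250 nuclei, had 20 of 26 intestinal markers raised, and the small cluster 29 had all 3 coelomocyte markers raised. Among the 101 members with 50 UMIs or more, the highest level was in intestine-like nuclei for 24 members, or 23.8% against 8.26% of all 17515 features with as many UMIs. Ribosomal-rich nuclei held the highest level of 15 members (14.9% against 2.89% of all features) and sperm-like nuclei that of 14 (13.9% against 10.4%). Germline-like nuclei, the most numerous class, held the highest level of only 3 members, 2.97% against 19.9% of all features. The 7 members highest in embryo-like nuclei were 6.93% against 9.49%. The remaining members were highest in glia-like (8), hypodermis-like (6), sheath- or spermatheca-like (5), muscle-like (5), unnamed (5), neuron-like (3), pharynx-like (3), vulva- or uterus-like (2) and seam-like (1) nuclei. A stricter count needed 50 UMIs or more in the class and 2 times the level of the other nuclei. It kept 16 intestine-like, 12 ribosomal-rich, 14 sperm-like, 3 germline-like and 4 embryo-like members. Also kept were 5 unnamed, 4 sheath- or spermatheca-like, 4 muscle-like, 3 hypodermis-like and 1 glia-like members. For neuron-like, pharynx-like, vulva- or uterus-like and seam-like nuclei it kept 0. Glia-like nuclei numbered only 42, and where the ribosomal-rich clusters were named by their markers, 0 members were left in that class.

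**Figure D2:**
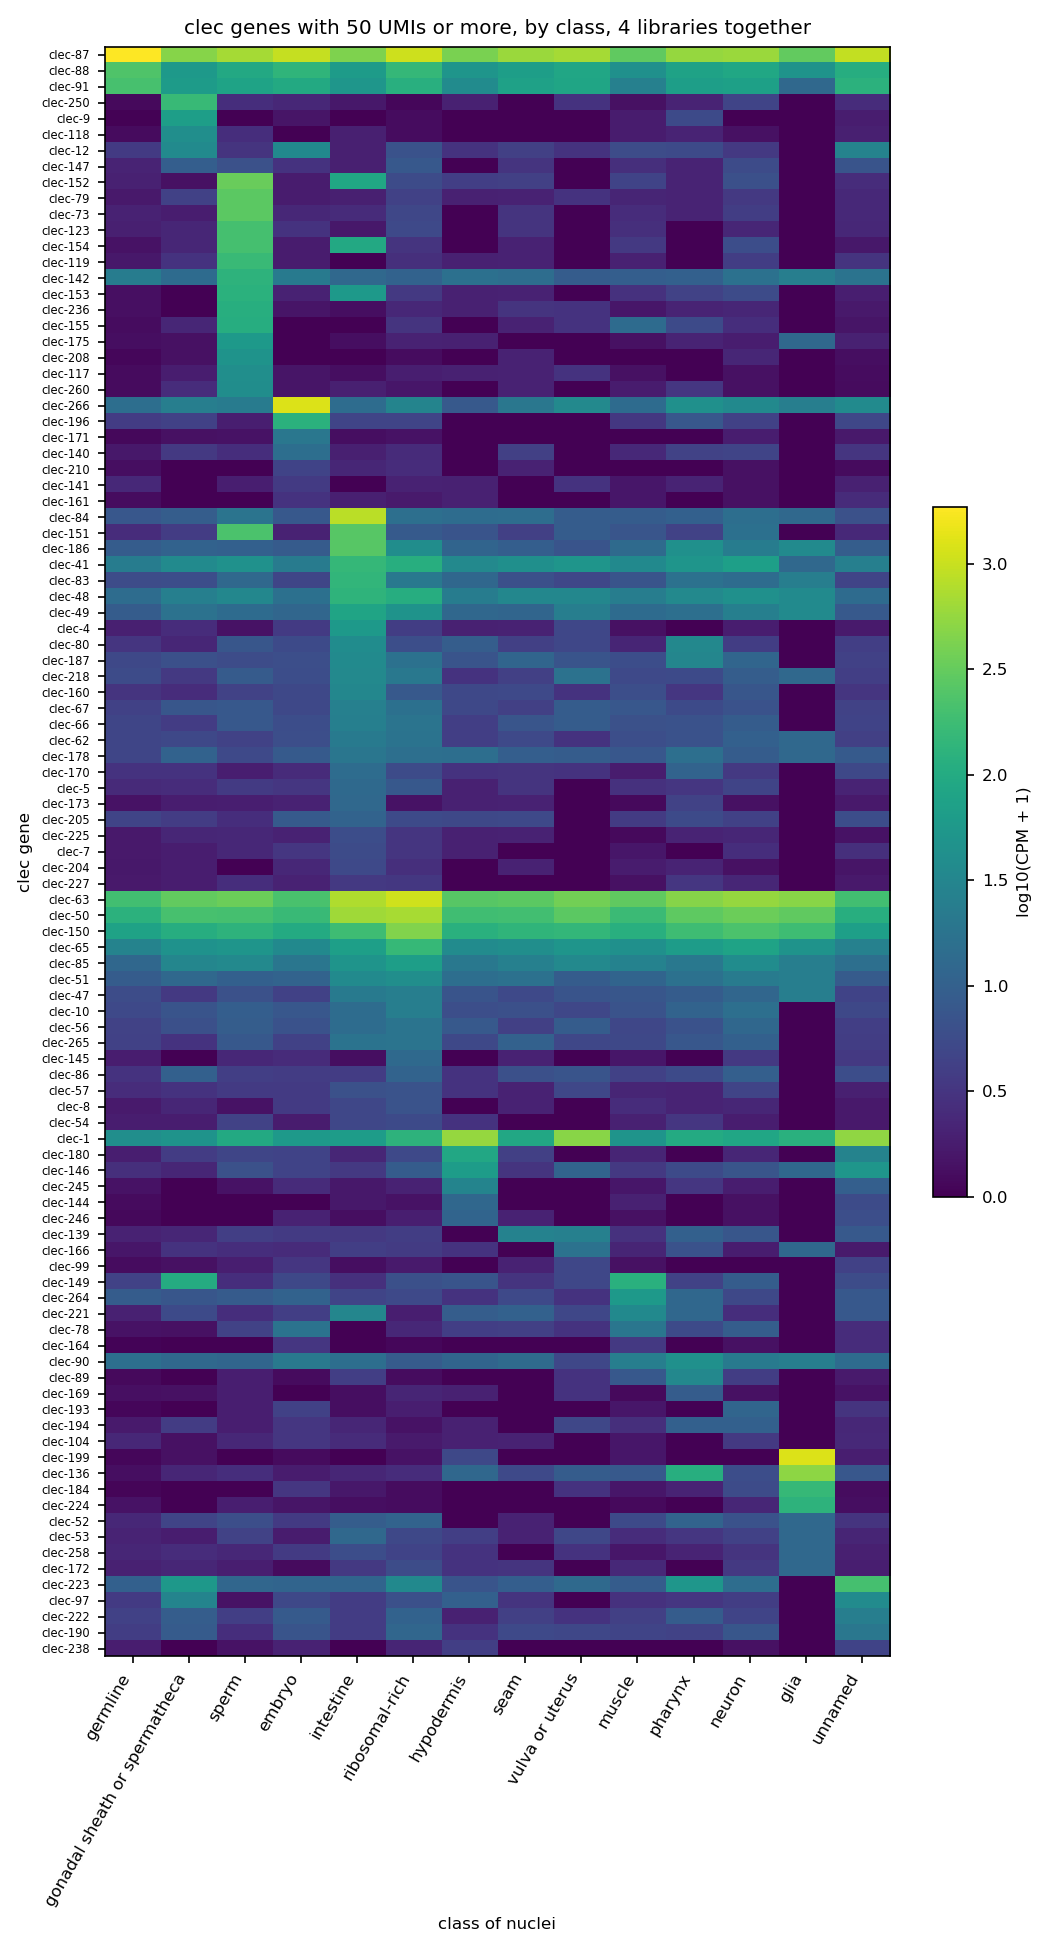
Level of the 101 clec genes with 50 UMIs or more (rows) in 14 classes of nuclei (columns), the 4 libraries together, as log10(CPM + 1) on the colour scale. Rows are grouped by the class in which the gene was highest. Sets highest in sperm-like and in intestine-like nuclei stand beside genes such as clec-87 and clec-63, which were counted in all 14 classes. The intestinal clec-84 was also counted outside its class, with 56 UMIs in germline-like and 274 in intestine-like nuclei of ctrl.

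Of the germline members clec-87 was the most abundant clec gene, at 1286, 1762, 1766 and 449 CPM over all nuclei. Its levels in ent-1KO and ent-2KO were alike and above ctrl, and ent-1KO;ent-2KD lay lowest, at a log2 ratio to ctrl of -1.52 (-1.55 to -1.49). Within germline-like nuclei the order was the same, at 1595, 2182, 2211 and 949 CPM, and the log2 ratio of ent-1KO;ent-2KD to ctrl was -0.75 (-0.79 to -0.71). With nuclei clustered without integration, clec-87 stood at 1540 CPM in germline-like nuclei of ctrl and 1680 CPM in the 411 of ent-1KO;ent-2KD, a log2 ratio of 0.13 (0.06 to 0.19), so that the direction within the class turned. Cluster 8, the germline cluster where all 3 germline members were highest, had clec-87 at 3365, 4449, 4789 and 2136 CPM. The clec-87 gene (chromosome I, 10184462 to 10185520) overlaps iars-2 on the other strand, and whether strand was used in counting is not given in the sources used here.

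The second chondroitin core protein gene, clec-88, stood at 167, 216, 197 and 78.8 CPM over all nuclei, a log2 ratio of ent-1KO;ent-2KD to ctrl of -1.09 (-1.17 to -1.01). Unlike the whole-library value, its ratio within germline-like nuclei was -0.27 (-0.37 to -0.17). The third germline member, clec-91, had nearly the same course, with 149, 200, 182 and 69.5 CPM over all nuclei and a log2 ratio of -1.10 there and -0.29 within germline-like nuclei. Thus clec-87 was 2-fold or more lower over all nuclei but not within the class, as were both of the others, where 7.5% of all features were 2-fold or more lower, and the 3 members had a median log2 ratio of -1.10 over all nuclei and -0.29 within the class. Without integration the ratios within the class turned to 0.80 for both clec-88 and clec-91, and the direction of all 3 members within germline-like nuclei thus depended on the clustering. UMIs of clec-88 per UMI of clec-87 came to 0.13 in ctrl and 0.18 in ent-1KO;ent-2KD in germline-like nuclei, with intervals of 0.12 to 0.14 and 0.17 to 0.19. The clec-88 gene overlaps ctsa-4.1 on its own strand, and clec-91 overlaps ZK858.8 on the other.

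UMIs of these germline members were also counted in every other class. After thinning each nucleus to 500 UMIs, clec-87 was present in 41.6% of germline-like nuclei of ctrl and in 28.4% of neuron-like nuclei, where the median nucleus held 1540 and 789 UMIs in all. In ent-1KO;ent-2KD the shares were 26.1% and 7.32%. The ratio of clec-88 to clec-87 in neuron-like nuclei of ctrl, 0.16 (0.12 to 0.21), overlapped that of germline-like nuclei. In intestine-like nuclei the only members 2-fold or more lower in ent-1KO;ent-2KD than in ctrl were clec-87, clec-91 and clec-88, with log2 ratios of -1.82, -1.76 and -1.62, where the 42 germline markers summed to 5702, 5138, 6043 and 3164 CPM.

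In the embryo the leading member was clec-266, on the X chromosome at 6617393 to 6622915 (WBcel235), with 2059, 2393, 2415 and 19 UMIs in the libraries. That is 111, 83.2 and 0.697 CPM in ctrl, ent-1KO and ent-1KO;ent-2KD, with an interval of 99.9 to 108 CPM in ent-2KO, so that ent-1KO lay below ctrl and ent-2KO. It was nearly absent from ent-1KO;ent-2KD, with a log2 ratio to ctrl of -7.28 (-8.05 to -6.67). Embryo-like nuclei had 1208, 1469 and 1149 CPM of clec-266 in ctrl, ent-1KO and ent-2KO, 59.4 times the level of all other nuclei combined. The 7 nuclei of ent-1KO;ent-2KD in this class had 0 clec-266 UMIs among 7575 UMIs, which allows up to 487 CPM by the exact Poisson interval, and all 28 embryo markers were at 0 in them. Among the embryo-like clusters cluster 27 held the highest level, with 3151 CPM over 79 nuclei of ctrl, 3644 CPM over 68 of ent-1KO and 2993 CPM over 84 of ent-2KO, and no nucleus of ent-1KO;ent-2KD.

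Outside the embryo clec-266 was sparse. After thinning to 500 UMIs it was seen in 33.8% of embryo-like nuclei over all libraries and in 0.844% of germline-like nuclei. In germline-like nuclei it stood at 20.1, 15.7, 14.96 and 0.536 CPM, so that its level there was also lowest in ent-1KO;ent-2KD, with 4 UMIs. The sum of the 28 embryo markers in germline-like nuclei was 195, 203, 204 and 169 CPM. The part that the loss of embryo-like nuclei has in these germline values was not tested. The clec-266 gene overlaps kqt-1 on the other strand.

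A further embryonic member, clec-196 on chromosome IV, had 245, 275, 232 and 9 UMIs, and its log2 ratio of ent-1KO;ent-2KD to ctrl was -5.25 (-6.47 to -4.37). It was 39.8 times higher in embryo-like than in other nuclei, and in cluster 27 it stood at 591, 830 and 550 CPM in the 3 libraries with nuclei there. Both clec-196 and clec-266 thus had their highest level in the same cluster. The third member raised in the embryo-like class, clec-12, was highest in sheath- or spermatheca-like nuclei. It stood at 24.8, 31.8 and 46.0 CPM in embryo-like nuclei of the first 3 libraries, but at 96.2, 122.2, 92.5 and 13.7 CPM in cluster 9, an unnamed cluster. Nuclei of ent-1KO;ent-2KD were present in cluster 9, 278 against 268 of ctrl, and clec-12 was lowest in them, outside the intervals of the other libraries. Within sheath- or spermatheca-like nuclei clec-12 was not lower in ent-1KO;ent-2KD. Its log2 ratio there was 0.44 (-0.43 to 1.49) to ctrl and 0.82 (-0.09 to 1.97) to ent-1KO.

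The intestine-like class was the most frequent place of a clec gene, and its clec sum was 4733, 5500, 4964 and 5030 CPM. Its leading member was clec-84 on chromosome IV, at 748 (662 to 842), 1022 (948 to 1100), 843 (761 to 932) and 802 (761 to 845) CPM. These levels were 109 times those of all other nuclei together. Over all nuclei clec-84 stood at 19.6, 30.9, 21.9 and 63.9 CPM, a log2 ratio of ent-1KO;ent-2KD to ctrl of 1.71, whereas within the class it was 0.10 (-0.09 to 0.29), and 0.98 (0.80 to 1.17) where ribosomal-rich clusters were named by their markers and joined it. Intestine-like nuclei were 1.84%, 2.35%, 2.18% and 4.35% of the libraries. After thinning, clec-84 was present in 19.2% of intestine-like and 0.665% of neuron-like nuclei over all libraries.

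Next to it, clec-186 stood at 278, 204, 168 and 306 CPM in intestine-like nuclei and clec-41, a member of the bacterial response, at 158, 157, 84.99 and 159 CPM. Both had their lowest value in ent-2KO, where clec-41 lay below the intervals of the other libraries. The level of clec-48 was 126, 110, 116 and 151 CPM, with overlapping intervals in every library. The clec-83 gene, a close neighbour of clec-84, stood at 87.3, 110, 109 and 175 CPM and was highest in ent-1KO;ent-2KD, outside the intervals of the other libraries. The level of clec-49 was 46.4, 66.7, 54.5 and 97.8 CPM, with a log2 ratio of ent-1KO;ent-2KD to ctrl of 1.04 (0.35 to 1.89), and its intervals in ent-1KO (48.8 to 88.9 CPM) and ent-1KO;ent-2KD (83.7 to 114 CPM) overlapped.

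Some intestinal members differed more between libraries. The infection-response gene clec-67 had 1, 10, 3 and 69 UMIs in intestine-like nuclei, or 2.73, 14.5, 6.54 and 39.5 CPM, highest in ent-1KO;ent-2KD. Its log2 ratio to ctrl of 3.28 (1.33 to 9.18) rests on 1 UMI of ctrl. The clec-4 gene had 34, 24, 1 and 126 UMIs there, or 92.8, 34.8, 2.18 and 72.1 CPM, and its intervals in ent-1KO (22.3 to 51.8) and ent-2KO (0.0552 to 12.1) did not overlap that of ctrl (64.3 to 130). In contrast to these, clec-50 in intestine-like nuclei stood at 617, 694, 691 and 589 CPM.

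Of 28 members with 50 UMIs or more over ctrl and ent-1KO;ent-2KD in intestine-like nuclei, 5 were 2-fold or more higher in ent-1KO;ent-2KD (7.38% of all features tested were) and 3 were 2-fold or more lower (7.6%). The 5 were clec-67, clec-85 (1.85), clec-160 (1.52), clec-221 (1.32) and clec-49, with log2 ratios in parentheses where not given before. The 28 members had a median log2 ratio of 0.27 against -0.12 for all features. In ent-1KO against ctrl 19 members had enough UMIs, 0 of them 2-fold or more higher (2.29% of all features) and 1, clec-4, lower at -1.41 (1.58%). For ent-2KO against ctrl 14 members were measured and neither direction reached 2-fold (3.48% and 3.0%), and clec-4, with 35 UMIs over both libraries, was under the minimum. For ent-1KO;ent-2KD against ent-1KO 3 of 29 members were 2-fold or more higher (4.55%) and 3 lower (6.9%). The summed 26 intestinal markers were nearly level across the libraries in this class, at 26180, 26805, 26402 and 26138 CPM.

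Ribosomal-rich nuclei carried the most abundant of the gut-type members. Here clec-63 stood at 665, 981, 517 and 1719 CPM, clec-50 at 507, 682, 340 and 1034 CPM, and clec-150 at 312, 428, 217 and 677 CPM. In all 3 genes the order of the libraries was the same, ent-2KO lowest, then ctrl, ent-1KO and ent-1KO;ent-2KD, and no interval overlapped another of the same gene. Within cluster 2 alone clec-63 stood at 708, 1034, 583 and 1816 CPM. Over all nuclei clec-63 had 171, 274, 136 and 541 CPM, clec-50 144.8, 202, 101 and 307 CPM and clec-150 84.7, 110, 53.4 and 189 CPM, in the same order of libraries. The log2 ratios of ent-1KO;ent-2KD to ctrl within ribosomal-rich nuclei were 1.37 (1.26 to 1.48), 1.03 (0.89 to 1.16) and 1.11 (0.95 to 1.29). With nuclei clustered without integration they were 0.41 (0.30 to 0.52), -0.035 (-0.16 to 0.09) and 0.08 (-0.08 to 0.24). All 3 were then under 2-fold, with clec-63 still higher in ent-1KO;ent-2KD. The size of all 3 differences within this class thus depended on the clustering.

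Close neighbours of clec-63 on chromosome II followed it in part. The clec-65 gene stood at 25.3, 41.9, 19.6 and 70.8 CPM over all nuclei, in the order of libraries of clec-63, and clec-66 at 4.42, 6.01, 2.89 and 8.66 CPM. Another member, clec-85, stood at 9.33, 19.01, 10.0 and 38.3 CPM and had the highest log2 ratio of ent-1KO;ent-2KD to ctrl among those with 1000 UMIs or more, apart from clec-151, at 2.03 (1.80 to 2.28). The clec-85 gene overlaps Y54G2A.40 on its own strand and Y54G2A.49 on the other, so that their reads may not be told apart.

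Like clec-87, clec-63 was counted in all classes. After thinning it was present in 27.8% of ribosomal-rich, 17.9% of intestine-like, 12.1% of neuron-like and 8.08% of germline-like nuclei of ctrl, and in 47.5%, 39.3%, 35.8% and 20.5% of those of ent-1KO;ent-2KD. UMIs of clec-63 per UMI of clec-50 in ctrl were 1.31 (1.18 to 1.46) in ribosomal-rich, 1.23 (1.14 to 1.33) in germline-like and 1.28 (0.94 to 1.74) in neuron-like nuclei, but 0.85 (0.70 to 1.03) in intestine-like and 0.69 (0.47 to 1.01) in muscle-like ones. In ent-1KO;ent-2KD they were 1.66 (1.57 to 1.75) in ribosomal-rich, 1.89 (1.78 to 2.02) in germline-like and 1.87 (1.68 to 2.08) in neuron-like nuclei, and the first of these intervals did not overlap that of germline-like nuclei. The intestinal markers summed to 5928, 5961, 4126 and 8625 CPM in germline-like nuclei and to 26085, 24567, 17329 and 38761 CPM in ribosomal-rich nuclei, with ent-1KO;ent-2KD highest and ent-2KO lowest in both. The part of these marker levels in the clec differences was not tested.

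The same gut genes thus appeared in different proportions in intestine-like and ribosomal-rich nuclei. UMIs of clec-84 per UMI of clec-50 were 1.21 (1.01 to 1.45) in intestine-like nuclei of ctrl but 0.0102 (0.00373 to 0.0223) in ribosomal-rich ones, and 1.36 and 0.0197 in ent-1KO;ent-2KD. For clec-150 per clec-50 the ratio went the other way, 0.27 (0.20 to 0.35) in intestine-like and 0.62 (0.54 to 0.70) in ribosomal-rich nuclei of ctrl. Among 27 members with enough UMIs in ribosomal-rich nuclei, 12 were 2-fold or more higher in ent-1KO;ent-2KD than in ctrl (8.93% of all features were) and 4 lower (29%), with a median log2 ratio of 0.97 against -0.60 for all features. Without integration 5 of 36 were higher (7.42%) and 6 lower (6.92%), with medians of 0.10 and 0.09. Ribosomal protein genes took 7.21%, 7.99%, 6.79% and 9.64% of the UMIs of the libraries.

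In sperm-like nuclei 14 members had their highest level, each at least 2 times that of the other nuclei. Those with the highest levels were the pseudogene clec-152 at 457, 157, 386 and 348 CPM, clec-79 at 231, 190, 277 and 314 CPM, and clec-73 at 242, 200, 314 and 293 CPM. The level of clec-79 was 238 times and that of clec-73 194 times that of all other nuclei, and both genes lie in a locus of 14 members on chromosome IV. In ent-1KO clec-152 lay below the intervals of the other libraries, while the interval of clec-79 in ctrl overlapped all others. Other sperm members were clec-123 (173, 192, 257 and 189 CPM), clec-154 (158, 91.01, 193 and 239 CPM) and clec-119 (99.8, 91.01, 69.2 and 224 CPM). The last of these was highest in ent-1KO;ent-2KD, outside the intervals of the other libraries. Sperm-like nuclei were 0.756%, 1.59%, 1.47% and 4.16% of the libraries, and in ctrl they numbered 80.

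Over all nuclei the sperm members gave the highest ratios of ent-1KO;ent-2KD to ctrl. The pseudogene clec-236 had 16, 32, 38 and 228 UMIs and a log2 ratio of 3.24 (2.55 to 4.11) over all nuclei, and 1.09 (0.31 to 2.13) within sperm-like nuclei. The corresponding values were 3.06 and 1.13 for clec-119, 2.89 and 0.54 for clec-208, 2.84 and 0.80 for clec-260 and 2.64 and 0.43 for clec-79. Of the 14 members 13 were 2-fold or more higher over all nuclei (28.7% of all features were) and 2 within the class (9.35%). Their median log2 ratio went from 2.47 to 0.56. Within sperm-like nuclei 7 of 26 members measured were 2-fold or more higher (9.35% of all features were) and 0 lower (8.82%). Those 7 included clec-63, clec-50 and clec-150, at 1.78, 1.47 and 1.604, where the 26 intestinal markers summed to 6080, 9668, 4973 and 11694 CPM in sperm-like nuclei. The part of these marker levels in the values was not tested.

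The neighbours clec-151 to clec-154, on chromosome III between 4628465 and 4640562, were counted in both sperm-like and intestine-like nuclei. Levels of clec-151 were 220, 147, 240 and 234.8 CPM in sperm-like and 167, 325, 244 and 268 CPM in intestine-like nuclei, so that ent-1KO had the lowest value in the former and the highest in the latter. All 4 genes overlap pfas-1 on the other strand, and clec-152 and clec-154 are annotated as pseudogenes. Whether reads of these neighbours and of pfas-1 were told apart in the counting was not tested, so their values are uncertain.

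**Figure D3:**
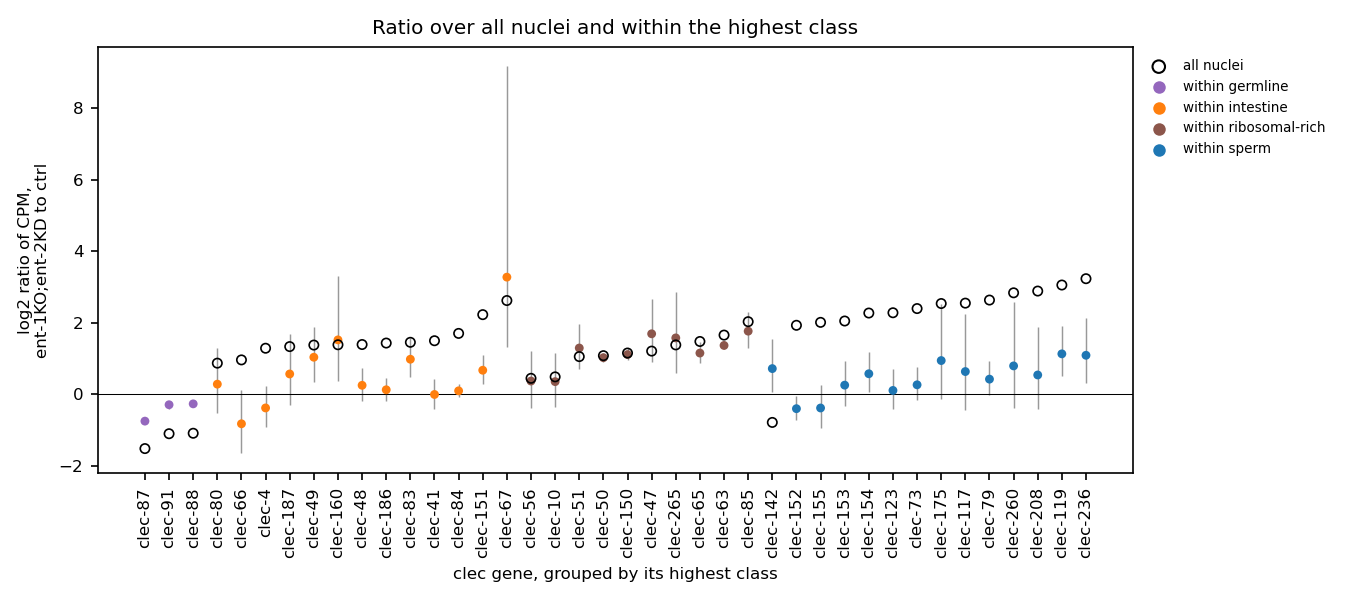
Log2 ratio of CPM of ent-1KO;ent-2KD to ctrl over all nuclei (open circles) and within the class where the gene was highest (filled points, bars are 95% intervals for counting error). Genes are grouped by class. The 14 sperm members moved from a median of 2.47 over all nuclei to 0.56 within the class, and the ribosomal-rich members from 1.18 to 1.23.

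The same comparison was made for the intestine and ribosomal-rich members. The 13 intestine members that could be measured within their class had a median log2 ratio of 1.40 over all nuclei and 0.29 within it, and the number 2-fold or more higher was 11 and 3. For 10 ribosomal-rich members the medians were 1.18 and 1.23, and 8 were 2-fold or more higher either way, in the clustering with integration. Not all of the 10 were gut genes by cluster. Among them clec-47 and clec-265 were highest in cluster 29, which had coelomocyte markers raised. That cluster is part of the class and held 7 nuclei of ctrl and 142 of ent-1KO;ent-2KD. The part of this mix in the ratios was not tested. Of all features 28.7% were 2-fold or more higher over all nuclei, 7.38% within intestine-like and 8.93% within ribosomal-rich nuclei. In ribosomal-rich nuclei clustered without integration, 5 of 36 members were higher (7.42% of all features), with a median of 0.10 against 0.09 for all features. The values over all nuclei and within a class share their UMIs and are not independent.

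Other tissues had fewer members, some of them at a high level. The highest level of any clec gene in a cluster was that of clec-223, in the unnamed cluster 24, at 8486 (7787 to 9231), 6594 (6014 to 7214), 4651 (4271 to 5055) and 8007 (7694 to 8330) CPM over 48, 45, 61 and 164 nuclei. It was lowest in ent-2KO and alike in ctrl and ent-1KO;ent-2KD. Its neighbour clec-222 on chromosome V had its highest level in the same cluster, at 1219, 1124, 890 and 596 CPM, lowest in ent-1KO;ent-2KD. Also raised there were clec-190 (531, 972, 495 and 609 CPM) and, at a lower level, clec-147 (109, 194, 252 and 179 CPM). Over all nuclei clec-223 stood at 38.5, 23.3, 43.5 and 104.04 CPM.

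Another unnamed group, cluster 32, held clec-97, at 4434 (3934 to 4980), 2894 (2347 to 3530), 3648 (3171 to 4178) and 1243 (888 to 1693) CPM over 42, 18, 33 and 25 nuclei. The level in ent-1KO;ent-2KD lay below the intervals of the others, and that of ent-1KO below ctrl. Over all nuclei clec-97 stood at 23.1, 6.92, 14.7 and 3.41 CPM. The neighbour clec-99 was also highest in this cluster, at 280, 208.8, 122.2 and 155 CPM from 18, 7, 7 and 5 UMIs, with overlapping intervals. The clec-97 gene on chromosome I overlaps clec-98 on the other strand.

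Cluster 29, with coelomocyte markers raised, held 7, 36, 9 and 142 nuclei, and clec-145 and clec-178 had their highest level there. So had clec-47 and clec-265. By class clec-178 was highest in intestine-like nuclei and was counted among the 24 members there. In the nuclei of ent-1KO and ent-1KO;ent-2KD clec-145 stood at 458 (297 to 676) and 271 (192 to 372) CPM and clec-178 at 385 (238 to 588) and 328 (240 to 438) CPM. The 7 nuclei of ctrl had 1 UMI of clec-145 and 0 of clec-178, which allows up to 533 CPM. The skn-1 gene lies on the other strand of clec-178.

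**Figure D4:**
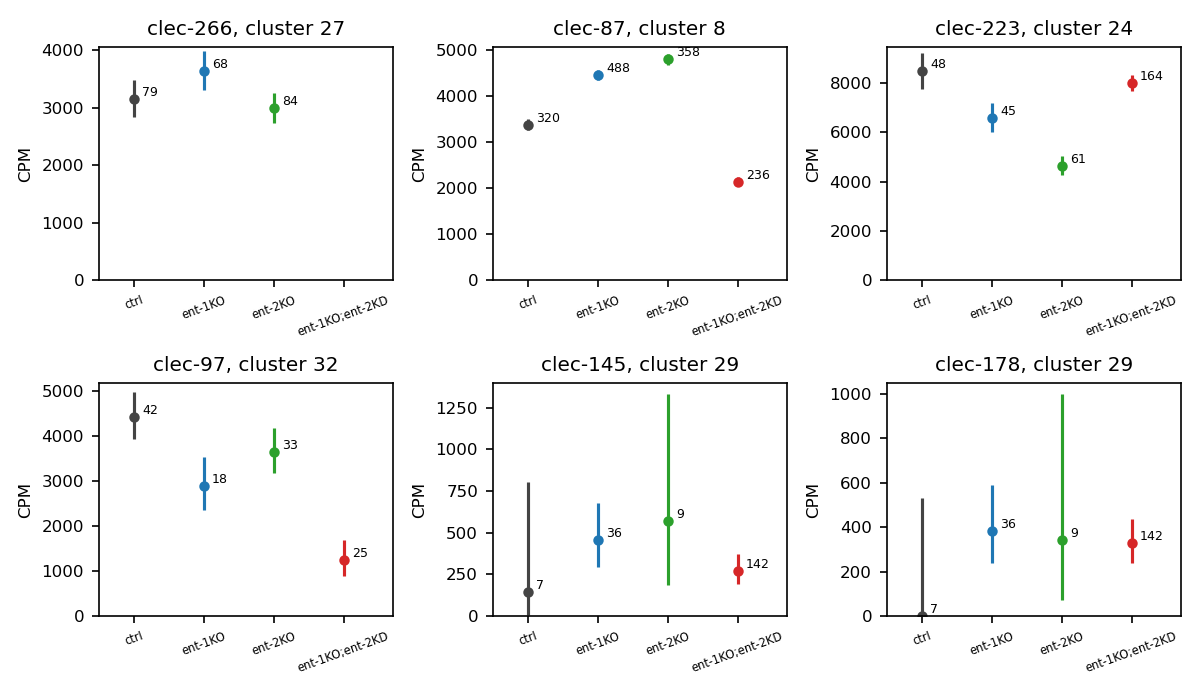
Level in CPM, on linear axes from 0, of 6 genes in their highest cluster in 4 libraries, with clec-145 and clec-178 both in cluster 29. Bars are exact Poisson 95% intervals and the number beside each point is its nuclei. Cluster 27 had no nucleus of ent-1KO;ent-2KD, and clec-97 in cluster 32 was lowest in that library at 1243 CPM.

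Hypodermis-like nuclei were led by clec-1, at 592, 518, 297 and 696 CPM, lowest in ent-2KO. In cluster 3, an unnamed cluster that held the most clec-1 UMIs, its levels were 783 (739 to 828), 928 (889 to 969), 743 (705 to 783) and 880 (855 to 907) CPM, closer to each other than over all nuclei, where they were 127, 137, 108 and 269 CPM. A rarer hypodermal member was clec-180, with 11, 20, 30 and 27 UMIs in the class. Another, clec-146, was highest in the unnamed cluster 14 at 176, 218, 178.5 and 315 CPM. Neighbours clec-145 and clec-146 on chromosome II, less than 1 kb apart, thus were highest in different clusters.

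Muscle-like nuclei had clec-149 at 88.1, 119.1, 118 and 125 CPM, with overlapping intervals, clec-264 at 81.2, 82.0, 56.1 and 42.2 CPM and clec-221 at 37.99, 45.9, 80.5 and 16.1 CPM. The last was highest in ent-2KO and lowest in ent-1KO;ent-2KD, outside the intervals of ctrl in both cases. Its course in intestine-like nuclei differed, at 16.4, 24.6, 2.18 and 44.1 CPM from 6, 17, 1 and 77 UMIs. In sheath- or spermatheca-like nuclei clec-149 stood at 156, 140, 121.8 and 56.0 CPM and was lowest in ent-1KO;ent-2KD.

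The sheath- or spermatheca-like class itself was led by clec-250, at 119.3, 223.2, 204 and 125 CPM, which was 215 times its level elsewhere. Its 2 clusters differed in other members. The clec-9 gene was counted in cluster 15 at 114, 128, 108 and 101 CPM, alike in all libraries, while in cluster 17 it had 0 UMIs in all of them, which allows at most 22.4 CPM in ctrl. The clec-118 gene was highest in cluster 17, at 164, 76.5, 55.2 and 118 CPM.

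In the 42 glia-like nuclei clec-199 reached 1236 CPM against 0.368 CPM elsewhere, from 11, 10, 28 and 55 UMIs over 7, 4, 8 and 23 nuclei. Its level in ctrl was 1024 (511 to 1833) CPM and in ent-1KO;ent-2KD 972 (732 to 1265) CPM. The clec-136 gene was found in these nuclei as well as in pharynx-like ones, at 108, 134, 162 and 82.6 CPM in the latter. In the unnamed cluster 20 clec-136 stood at 511, 357, 173 and 113 CPM, with ctrl and ent-1KO above ent-2KO and ent-1KO;ent-2KD except that the interval of ent-1KO, 239 to 513 CPM, met that of ent-2KO, 108 to 261 CPM.

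Over whole libraries ent-1KO;ent-2KD and ctrl were compared for the 90 members with 50 UMIs or more over both. Of these 46 were 2-fold or more higher in ent-1KO;ent-2KD, where 28.7% of all 15841 features were, and 8 were 2-fold or more lower, where 13.6% were. The members' median log2 ratio was 1.05 and that of all features 0.22. The 8 included clec-266, clec-196, clec-97, clec-87 and clec-12, with log2 ratios of -7.28, -5.25, -2.75, -1.52 and -1.34. The classes were then weighted as in ctrl, a setting added after the data had been seen. There 19 members were 2-fold or more higher (10.4% of all features were) and 9 lower (11.9%). The medians were 0.46 for the members and 0.02 for all features. This weighting used the classes with integration. It also raised the 7 embryo-like nuclei of ent-1KO;ent-2KD, with 7575 UMIs, to the embryo-like share of ctrl.

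**Figure D5:**
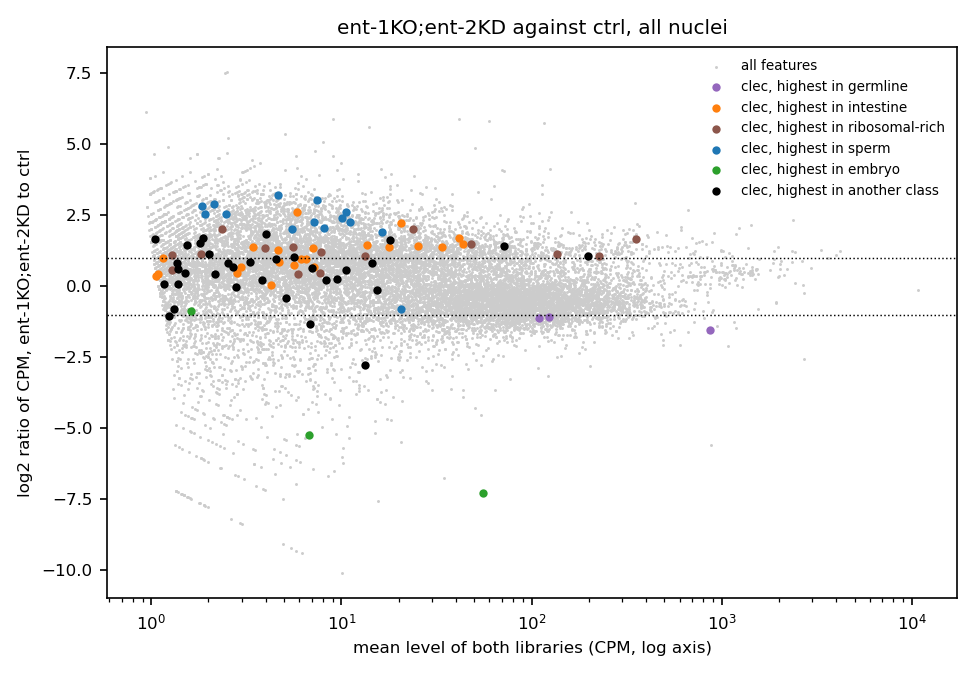
Log2 ratio of CPM of ent-1KO;ent-2KD to ctrl over all nuclei (vertical) against the mean level of both libraries in CPM (horizontal, log axis), for all features with 50 UMIs or more (grey) and for 90 clec genes (coloured by the class in which each was highest). Dotted lines mark a 2-fold difference. The sperm members lie above the upper line with 1 exception, clec-142, and clec-266 lies lowest of the clec genes at -7.28.

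The single knockouts differed less from ctrl. In ent-1KO 6 of 78 members were 2-fold or more higher, against 1.28% of 14969 features, and 3 lower, against 2.46%, and the median log2 ratio was 0.25 against 0.01. The 6 were clec-67 (1.75), clec-238 (1.19), clec-160 (1.19), clec-57 (1.08), clec-145 (1.06) and clec-85 (1.02), and the 3 were clec-97 (-1.74), clec-118 (-1.53) and clec-136 (-1.13). In counts, clec-67 had 30, 159, 61 and 276 UMIs in the libraries, lowest in ctrl. The ent-1KO library had 18 nuclei in the cluster of clec-97, against 42 in ctrl.

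In ent-2KO 3 of 78 members were 2-fold or more higher than in ctrl, against 2.8% of 14876 features, and 1 lower, against 1.11%. The median was -0.09 against 0.02 for all features. Sperm members clec-123 (1.10) and clec-73 (1.05) were among the 3, and clec-246 (1.07) was highest in cluster 14. The lower one was clec-4 at -2.12, with 50, 43, 14 and 181 UMIs in the libraries. The next lowest were clec-99 (-0.94), clec-52 (-0.92), clec-56 (-0.91) and clec-5 (-0.90).

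Against ent-1KO, which shares the knockout and differs in the RNAi, ent-1KO;ent-2KD had 35 of 94 members 2-fold or more higher (30.5% of all features) and 8 lower (14.5%), with a median log2 ratio of 0.78 against 0.27. The lowest were clec-266 (-6.86), clec-196 (-4.78), clec-238 (-2.10), clec-12 (-1.98) and clec-87 (-1.97). Highest were clec-208 (4.96, from 3 and 103 UMIs), clec-236 (2.89), clec-117 (2.72), clec-119 (2.68) and clec-260 (2.61), all of them sperm members. Of the 14 sperm members, 13 were 2-fold or more higher over all nuclei and 8 within sperm-like nuclei, where 9.54% of all features were. Their median log2 ratio was 2.42 over all nuclei and 1.075 within the class. Comparisons to ctrl share that library, and this one shares ent-1KO and ent-1KO;ent-2KD with them, so they are not independent of each other.

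A list of 19 clec genes known to respond to bacteria had 10 members with enough UMIs in ent-1KO;ent-2KD and ctrl, 8 of them 2-fold or more higher over all nuclei and 0 lower, with a median log2 ratio of 1.38. Of all features 28.7% were higher and 13.6% lower, with a median of 0.22. Within intestine-like nuclei 7 were measured, 3 were 2-fold or more higher and the median was 0.13, where 7.38% of all features were higher and 7.6% lower with a median of -0.12. The median over all nuclei was 0.51 in ent-1KO, with 2 of 10 higher (1.28% of all features were). It was -0.17 in ent-2KO, with 1 of 10, clec-4, lower (1.11% of all features were). The medians of all features were 0.01 in ent-1KO and 0.02 in ent-2KO. Other secreted defense proteins, lysozymes and saposin-like proteins among them, had 15 of 26 measured genes 2-fold or more higher in ent-1KO;ent-2KD than in ctrl over all nuclei and a median of 1.26, and 4 of 16 higher and 2 lower within intestine-like nuclei, with a median of 0.37. Regulators of intestinal defense such as pmk-1 and atf-7 had 5 of 16 genes 2-fold or more higher over all nuclei, a share near that of all features, and 0 of 15 within intestine-like nuclei. Eggshell and chondroitin genes, which act with clec-87 and clec-88 in the egg, had 1 of 19 higher and 2 lower over all nuclei and a median of -0.59.

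The members lay close together in the genome. With gaps of 20 kb or less they formed 129 loci, 54 of them with 2 members or more that held 189 members. The locus with the most members, 15 on chromosome V between 16839121 and 16869840 (WBcel235), held none with 50 UMIs or more. The locus of clec-62, clec-63, clec-64, clec-65 and clec-66 on chromosome II (12893062 to 12906644) had its expressed members highest in intestine-like or ribosomal-rich nuclei, as had that of clec-84 on chromosome IV (2823746 to 2855456). At 11271351 to 11278161 on chromosome V, clec-222 and clec-223 were highest in the same cluster.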

How the data were processed

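The UMI counts of 46926 features per nucleus barcode were deposited by the authors as raw counts, 1 matrix per library, without normalization. They were made with Cell Ranger on the WS282 annotation, version 6.0 per the submitters' processing notes and 6.1.2 per the file headers. Whether intronic or antisense reads were counted is not given in the sources used here. Names, biotypes, positions and overlaps of the members came from the WBcel235 annotation. It lists 27 of the 264 symbols otherwise or without a name, and the symbols of the files were kept.

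No barcode had fewer than 200 genes or more than 10% mitochondrial UMIs. Doublets were the highest Scrublet scores (scanpy 1.11.5) at 0.8% per 1000 barcodes, which removed 1089, 1784, 1235 and 1377 barcodes, because the caller's own threshold marked 0, 1, 0 and 2. The nuclei kept held 18550683, 28771431, 23220872 and 27249270 UMIs. Nuclei were integrated by canonical correlation analysis and clustered in Seurat 5.3.0 (R 4.3.3) with 2000 variable genes, no clec gene among them, 30 dimensions and resolution 0.8. A cluster was named for the list with the highest median log2 ratio of its markers to their median level over clusters (10 CPM added). That median ratio had to reach 0.5 with 3 markers raised. No name was given where more of the cluster's 10 leading genes were markers of another class. The same held where its nuclei were shallow and none of those genes was a marker of the list. Clusters with over 1.5 times the median share of ribosomal protein UMIs were kept out of the named classes. Class names are rebuilt here and may differ from those of the study.

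UMIs were summed per class and library, as CPM of all UMIs of those nuclei with exact Poisson intervals. Differences were log2 ratios of CPM with 0.5 UMIs added and conditional binomial intervals, for features with 50 UMIs or more over both libraries. Shares of nuclei with a UMI were taken after thinning each nucleus to 500 UMIs. Python 3.11.15, numpy 2.4.6, scipy 1.17.1, pandas 2.3.3 and matplotlib 3.10.9 were used. The code of the log2 ratio and its interval was run on simulated Poisson counts. These hold counting error only, the model of the interval itself, so the run does not bear on variation between nuclei or libraries. Alternatives were doublets kept, other totals and UMI minimums, thinned nuclei, no integration, resolutions 0.4 and 1.6, clec genes among the variable genes, ribosomal-rich clusters named by markers and, added after the data were seen, classes weighted as in ctrl. Genes were named by rule: clec-266, the 10 members with the most UMIs, the 3 highest of each class at 2 times the level of other nuclei, and the 5 largest and 5 smallest log2 ratios of each comparison over all nuclei and in intestine-like nuclei, with their neighbours in the genome. Outside that rule, clec-147, clec-178, clec-142, clec-47 and clec-265 were named after their values were seen. The members, the lists and the tests were chosen with earlier results of these data known. Sequences of promoters and proteins were not used here.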

Additional observations from a re-analysis of the deposited data

How the results depend on the processing

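The call of a difference here is a ratio of 2 libraries, so no alternative could turn it into a test, and library-to-library variation stays unknown. No paired analysis was possible because each group has 1 library. The summed clec level was 2951, 3835, 3358 and 3277 CPM with totals without ribosomal protein and mitochondrial genes, and 3551 CPM in ent-1KO with doublets kept. For ent-1KO;ent-2KD against ctrl, members 2-fold or more higher were 46 as reported, 102 with no UMI minimum, 29 with nuclei thinned to 500 UMIs and 19 with classes weighted as in ctrl, and those lower 8 and 41 with no minimum. For ent-1KO against ctrl, 10 of 128 were higher (3.18%) and 9 lower (5.49%) at a minimum of 10 UMIs. With none, 24 of 225 were higher (5.72%) and 43 lower (11.8%). For ent-2KO against ctrl, 7 of 128 were higher (5.05%) and 6 lower (2.86%) at 10 UMIs. With none, 32 of 214 were higher (11.6%) and 30 lower (9.22%). With classes weighted as in ctrl, 0 of 78 were higher (1.17%) and 2 lower (1.14%). Those lower were 3 of 81 with doublets kept (1.05%) and 2 of 42 with thinned nuclei (0.78%). For ent-1KO;ent-2KD against ent-1KO, 91 of 230 were higher with no minimum (33.7%), 17 of 60 thinned (26.4%) and 18 of 94 weighted (9.84%). Those lower were 16 of 141 at 10 UMIs (14.8%) and 37 of 230 with none (17.5%). Counts without a minimum rest on genes with few UMIs. The number of members highest in ribosomal-rich nuclei, 15, was 6 without integration, 8 at resolution 0.4 and 8 at 1.6, and 0 where these clusters were named by markers. The class with the highest level was as reported for 72 of 105 members with doublets kept and for 76 of 101 with those clusters named by markers. Within intestine-like nuclei, members 2-fold or more higher with those clusters named by markers were 12 of 39 in ent-1KO;ent-2KD against ctrl. They were 1 of 30 in ent-1KO, 2 of 24 in ent-2KO and 9 of 41 in ent-1KO;ent-2KD against ent-1KO. With doublets kept, 1 of 19 was higher in ent-1KO. The share of all features was not computed for these intestine-like counts. With classes weighted as in ctrl, the ratios of ent-1KO;ent-2KD to ent-1KO turned to -0.086 for clec-199 and -0.023 for clec-9, from 2.42 and 1.26. Without integration, the ratios of ent-1KO;ent-2KD to ctrl turned to 0.13 for clec-87, 0.80 for clec-88 and 0.80 for clec-91 within germline-like nuclei and to -0.035 for clec-50 within ribosomal-rich ones. The ratio of clec-84 within intestine-like nuclei was 0.98 with ribosomal-rich clusters named by markers, from 0.10. Elsewhere 107 summary values and 1569 values of single genes moved by less than their limits, and the remaining values of single genes by more, some of them with a change of sign where the reported ratio was under 2-fold. The median shift of all features in ent-1KO;ent-2KD against ctrl, 0.22, was 0.01 with thinned nuclei and 0.02 weighted. The causes of these moves were not tested, beyond the fewer or more genes and the other class mix that the settings themselves bring.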
